A study of Mus musculus with 7 samples.

Results

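The transcripts of 9 genes of calcium-calmodulin signalling were followed in the hippocampus of CD1 mice given the immunoproteasome inhibitor ONX-0914. The genes were taken by name for their part in synaptic plasticity from 55416 gene identifiers, a choice made with earlier results of these data known. They encode the CaMKII subunits Camk2a (ENSMUSG00000024617), Camk2b (ENSMUSG00000057897), Camk2d (ENSMUSG00000053819) and Camk2g (ENSMUSG00000021820), and the nuclear kinase CaMKIV, Camk4 (ENSMUSG00000038128). The others are the calcineurin subunits Ppp3ca (ENSMUSG00000028161), Ppp3cb (ENSMUSG00000021816) and Ppp3r1 (ENSMUSG00000033953), and neurogranin, Nrgn (ENSMUSG00000053310). All 9 passed the filter on low counts, which left 13152 genes for testing.

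Calcium that enters a dendritic spine through NMDA receptors binds calmodulin, which then activates CaMKII, a kinase needed for long-term potentiation (LTP), and calcineurin, a phosphatase known for its role in long-term depression. Neurogranin binds calcium-free calmodulin in the dendrites of excitatory neurons and limits the pool that these enzymes can draw on. CaMKIV carries the calcium signal to transcription factors in the nucleus, and the alpha and beta subunits of CaMKII are the main forms in forebrain neurons, while the delta and gamma subunits are made in many tissues.

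All mice were age-matched males of the outbred CD1 strain. The ONX-0914-treated mice received 10 mg/kg of the inhibitor intraperitoneally 2 times per week for 2 months, the DMSO-treated mice received an equal volume of the vehicle on the same schedule, and the control mice were untreated. Bulk RNA-seq gave 3 control libraries, 2 DMSO libraries (replicates 2 and 3) and 2 ONX-0914 libraries (replicates 1 and 2). The sources do not say how many animals stand behind a library, so that p-values measure the spread between these libraries. In whole tissue, fewer cells of a type cannot be told apart from less RNA per cell.

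Total counts per library were 2842675 to 3877006, apart from ONX-0914 replicate 2 with 13782270, so that its values carry the least counting error. The ONX-0914 libraries stood apart from the rest, and in different ways. Marker genes were summed as CPM, read counts scaled to the effective library size. The 5 excitatory neuron markers were at 22.6% of the control mean in ONX-0914 replicate 1 and at 62.3% in replicate 2, and each of the 5 was below all control libraries in both. The 8 pan-neuronal markers were at 86.9% and 66.8%, and the 6 inhibitory neuron markers at 214% and 103%. Of these 6, 4 were above every control library and 1 below in replicate 1. In replicate 2, 3 were above and 3 below. The 8 striatal markers were at 526% in replicate 1, all 8 above every control library, and at 79.4% in replicate 2, and the 7 thalamic markers, of which Gbx2 had no count in some libraries, were at 881% and 90.3%. The 4 blood markers were at 262% and 2342%, and the 5 endothelial markers at 176% and 179%. Mitochondrially encoded genes took 3.71% of the counts of replicate 2 and 0.818% to 1.59% elsewhere. The labelled tissue showed its defining markers in every library, but the CA1, CA3 and dentate gyrus markers were at 35.6%, 46.0% and 27.8% of the control mean in replicate 1 and at 109%, 83.1% and 73.2% in replicate 2. The CA1 sum of replicate 2 joins unlike genes, since 2 of the 4 were above every control library and 2 below. The part of these differences in the results below was not tested.

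In untreated hippocampus, the 9 genes covered a wide range of levels. Per kilobase of exon, Nrgn was at 1058 ± 53.4 CPM (SD, n = 3) and Camk2a at 812 to 996 CPM, followed by Ppp3r1 at 412 ± 19.7 CPM. The next were Ppp3ca at 182 ± 23.3 CPM and Camk2b at 168 ± 5.20 CPM, the only neighbours in the order whose control libraries overlapped. Ppp3cb was at 56.8 ± 2.02 CPM, Camk2g at 30.5 ± 5.84 CPM and Camk4 at 22.2 ± 1.63 CPM. Camk2d was the lowest at 0.885 ± 0.342 CPM per kilobase, on 36 to 102 counts per control library. These levels rest on the merged length of all annotated exons, which for Camk2d is 22493 bases, so that a gene with long or alternative exons has a lower level per kilobase than its main transcript would give.

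Against control, none of the 9 genes passed FDR < 0.05 in ONX-0914-treated hippocampus by the quasi-likelihood test of edgeR, in either direction. Among all 13152 genes, 10 were lower (0.076%) and 5 were higher (0.038%). At an unadjusted p under 0.05, 4 members were lower, against 8.04% of all genes, and 1 was higher, against 10.6%. DESeq2 called 2 members, Camk2d, where it called 1.11% of all genes higher, and Ppp3r1, where it called 1.84% lower. The median Log2FC was -0.50 for the 9 members and 0.05 for all genes tested, and 7 of the 9 had a negative Log2FC, against 46.2% of all genes. Both ONX-0914 libraries were below every control library for 5 members, against 16.3% of all genes, and above every control library for 1 member, against 16.9%. With the DMSO libraries added to the control libraries, the counts of members were the same, against 11.3% of all genes below and 11.4% above.

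**Figure D1:**
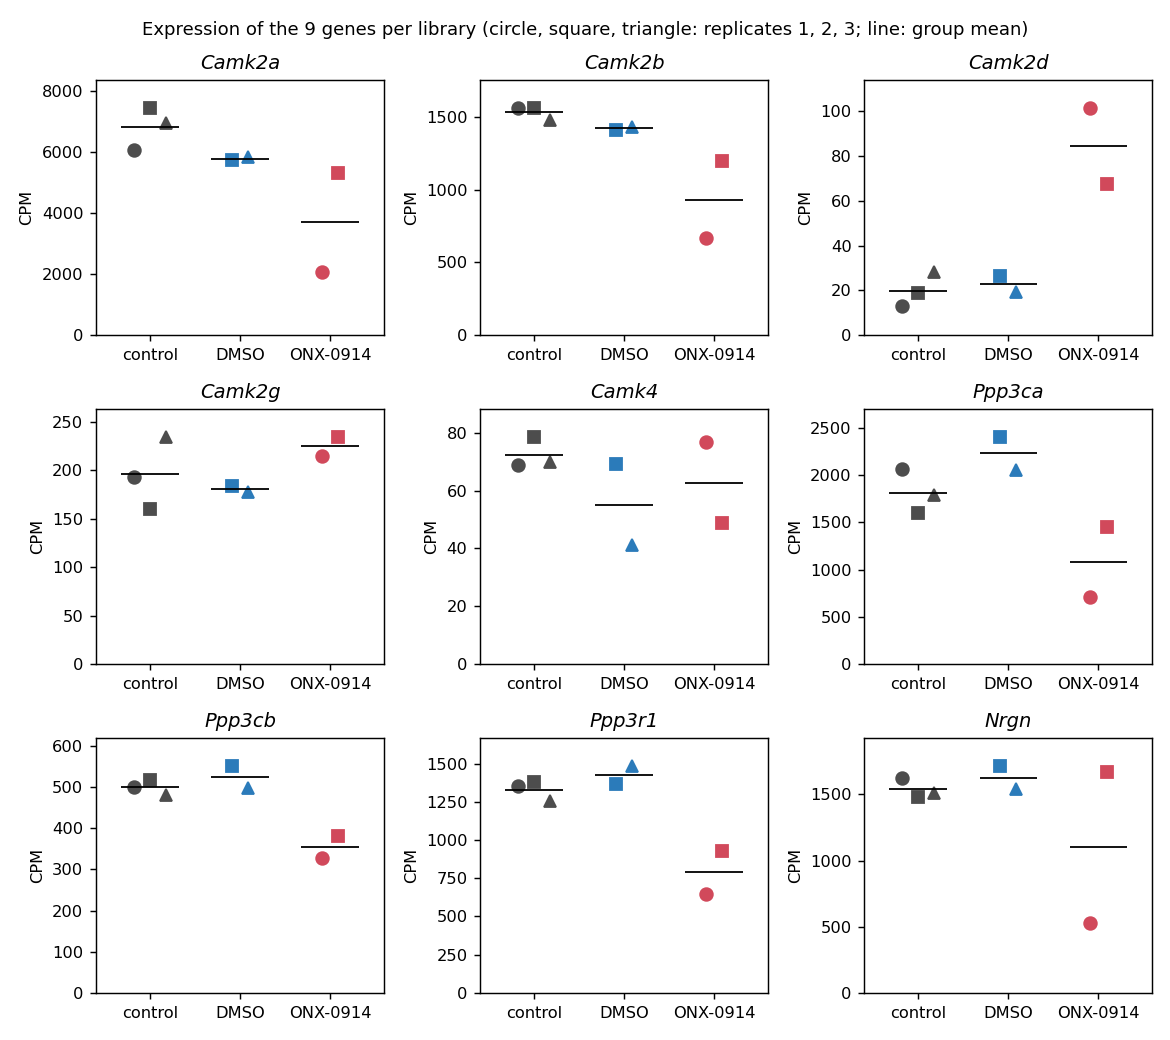
Expression of the 9 genes in CPM (y axis, from 0) in the control, DMSO and ONX-0914 libraries, with 1 marker per library and a line at each group mean. Camk2d is the gene with both ONX-0914 libraries above all others, at 67.7 and 101 CPM, and Camk2a, Camk2b, Ppp3ca, Ppp3cb and Ppp3r1 have both below all others.

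Camk2a encodes the alpha subunit of CaMKII, whose mRNA is carried into dendrites. Its level was 6060, 7438 and 6960 CPM in the control libraries, 5726 and 5847 CPM with DMSO, and 2083 and 5327 CPM with ONX-0914. Both ONX-0914 libraries lay below all 5 others, replicate 1 far below and replicate 2 close to the DMSO libraries. The Log2FC against control was -0.88 (SE 0.402, FDR = 0.283). Replicate 1 was at 30.6% of the control mean and replicate 2 at 78.1%. The DMSO libraries also lay below all control libraries, as they did for 15% of all genes. That held for Camk2b too, and no member had both DMSO libraries above all control libraries, against 15.7% of all genes.

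Camk2b, the gene of the beta subunit, which binds actin in spines, had 1559, 1561 and 1478 CPM in control, 1413 and 1431 CPM with DMSO and 666 and 1195 CPM with ONX-0914. The order of the groups was that of Camk2a, with no overlap between ONX-0914 and the rest. The Log2FC against control was -0.72 (SE 0.269, unadjusted p = 0.0275, FDR = 0.218 with edgeR).

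Camk2d, the delta subunit gene best known from heart muscle, differed in the opposite direction. It had 12.8, 18.8 and 28.1 CPM in the control libraries, 26.6 and 19.3 CPM with DMSO, and 101 and 67.7 CPM with ONX-0914. These values rest on 36 to 102 counts in each control library, 99 and 54 with DMSO, and 403 and 1025 with ONX-0914. Each ONX-0914 library had more than any library without the inhibitor, by a margin wider than the spread among those 5. The Log2FC was 2.07 (SE 0.326, 95% interval 1.32 to 2.82), a 4.20-fold difference with an unadjusted p of 0.000198, which ranked 44 of 13152 and gave an edgeR FDR of 0.059. The gene thus missed the threshold with edgeR and passed it with DESeq2 (FDR = 1.88e-05) and with edgeR against the pooled control and DMSO libraries (Log2FC 1.98, FDR = 0.0112). It was the only member under an FDR of 0.1, at which 0.585% of all genes were higher and 0.89% lower. ONX-0914 replicate 1, in which the thalamic and striatal marker sums were highest, was at 509% of the control mean, and replicate 2, with those sums below the control mean, was at 340%.

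The sequence around the start site of Camk2d is shown because it was the member with the largest difference. It is taken from the RefSeq table of promoters on GRCm38.p6, chr3:126596701-126597000 on the plus strand, from 250 bases before to 50 bases after the start. Capitals mark the GC box GGGCGG and the half-site of the cAMP response element TGACG, on either strand.
Camk2d: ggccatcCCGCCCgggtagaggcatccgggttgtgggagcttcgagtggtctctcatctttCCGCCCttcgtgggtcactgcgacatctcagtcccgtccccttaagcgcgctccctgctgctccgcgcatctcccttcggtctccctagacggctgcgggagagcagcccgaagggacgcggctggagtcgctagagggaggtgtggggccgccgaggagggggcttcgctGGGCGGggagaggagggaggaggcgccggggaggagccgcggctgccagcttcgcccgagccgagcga
It holds 3 GC boxes, a motif found in 35.7% of 32851 promoters of the same length, and no TGACG, found in 20.8%. A match is a description of the letters only.

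Camk2g, the gamma subunit gene, had 193, 159 and 234 CPM in control, 183 and 177 CPM with DMSO and 215 and 234 CPM with ONX-0914. The groups overlapped. The Log2FC was 0.20, with a 95% interval of -0.24 to 0.64 (FDR = 0.591), an interval that holds both lower and higher levels than control.

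Counts of the 4 CaMKII genes were then set against their own sum in each library, which removes the library size. Camk2a took 77.4%, 81.0% and 80.0% of these counts in control, 77.9% and 78.2% with DMSO, and 68.0% and 78.1% with ONX-0914, so that replicate 2 lay among the untreated and DMSO libraries. The share of Camk2d was 0.164%, 0.205% and 0.323% in control, 0.361% and 0.258% with DMSO, and 3.31% and 0.993% with ONX-0914. Both ONX-0914 libraries were above all others for Camk2d. The Camk2d share averaged 2.15% ± 1.64 (SD, n = 2) with ONX-0914 and 0.262% ± 0.0813 (n = 5) without, a difference of 1.89 percentage points (exact two-sided permutation test, p = 0.0952, adjusted over 3 shares 0.286). With 2 against 5 libraries, 0.0952 was the smallest p that this test can give, and it could not pass 0.05. The Camk2a share differed by -5.91 points (exact permutation test, p = 0.286), and by -0.856 points without ONX-0914 replicate 1.

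**Figure D2:**
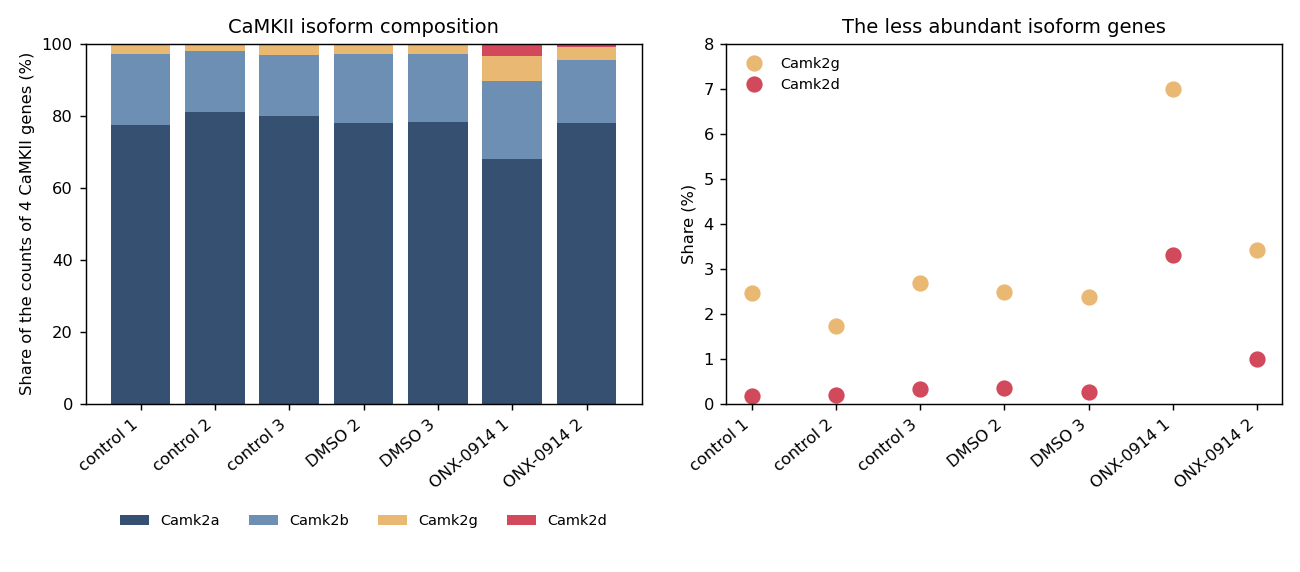
Left, the share of each gene in the summed counts of the 4 CaMKII genes (y axis, percent) in each of the 7 libraries as stacked bars from 0 to 100. Right, the shares of Camk2g and Camk2d alone (percent), with Camk2d at 0.164% to 0.361% in the libraries without ONX-0914 and at 3.31% and 0.993% with it.

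On this scale Camk2g was above all other libraries in both ONX-0914 libraries, with 7.0% and 3.43% against 1.74% to 2.69% in the other libraries. Its own CPM overlapped between the groups, and the sum that it was divided by was lower with ONX-0914. Camk2b took 21.7% and 17.5% with ONX-0914 and 17% to 19.9% without.

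Camk4 encodes CaMKIV, which phosphorylates CREB. It had 68.8, 78.5 and 69.9 CPM in control, 69.2 and 41.1 CPM with DMSO, and 76.8 and 48.7 CPM with ONX-0914. The 3 groups overlapped, and each treated group had 1 library within the control range and 1 below it. The Log2FC was -0.22 (95% interval -0.84 to 0.41, FDR = 0.683), and it was 0.08 without ONX-0914 replicate 2.

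For each of the 3 calcineurin genes, both ONX-0914 libraries lay below the other 5. Ppp3ca, the alpha catalytic subunit, had 2060, 1596 and 1789 CPM in control, 2403 and 2057 CPM with DMSO, and 707 and 1446 CPM with ONX-0914. Replicate 1 was at 39% of the control mean and replicate 2 at 79.7%, under the lowest control library. The Log2FC against control was -0.75 (SE 0.322, unadjusted p = 0.0467, FDR = 0.262 with edgeR).

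Ppp3cb, the beta catalytic subunit, had 501, 517 and 482 CPM in control, 552 and 498 CPM with DMSO, and 327 and 381 CPM with ONX-0914. Of the 5 genes that did not overlap in this direction, it had the closest pair of ONX-0914 libraries, at 65.5% and 76.2% of the control mean. The Log2FC was -0.50 (SE 0.172, unadjusted p = 0.0197, FDR = 0.199 with edgeR).

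Ppp3r1 encodes calcineurin B, the calcium-binding regulatory subunit that both catalytic subunits need. It had 1352, 1377 and 1257 CPM in control, 1366 and 1485 CPM with DMSO, and 650 and 931 CPM with ONX-0914. Both ONX-0914 libraries were well under the narrow range of the other 5. The Log2FC was -0.75 (SE 0.224, 95% interval -1.26 to -0.24, unadjusted p = 0.00975, FDR = 0.16 with edgeR, FDR = 0.043 with DESeq2), and it had the smallest p of the members that were lower.

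The share of Ppp3cb in the counts of both catalytic genes was 19.6%, 24.5% and 21.2% in control, 18.7% and 19.5% with DMSO, and 31.6% and 20.9% with ONX-0914. Replicate 2 lay among the libraries without ONX-0914. The mean difference of 5.56 points (exact two-sided permutation test, p = 0.286) was 0.168 points without replicate 1.

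The start sites of Ppp3cb and Ppp3r1 are shown because these subunits assemble into 1 enzyme. Neither gene passed FDR < 0.05 with edgeR. They come from the same table and build, from chr14:20546524-20546823 on the minus strand and chr11:17159048-17159347 on the plus strand, with the same motifs in capitals.
Ppp3cb: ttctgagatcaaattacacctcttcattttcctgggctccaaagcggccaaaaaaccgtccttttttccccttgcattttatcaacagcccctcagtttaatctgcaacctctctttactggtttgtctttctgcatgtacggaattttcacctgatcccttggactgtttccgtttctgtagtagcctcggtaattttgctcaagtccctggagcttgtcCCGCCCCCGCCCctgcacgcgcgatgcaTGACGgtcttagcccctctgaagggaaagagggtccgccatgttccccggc
Ppp3r1: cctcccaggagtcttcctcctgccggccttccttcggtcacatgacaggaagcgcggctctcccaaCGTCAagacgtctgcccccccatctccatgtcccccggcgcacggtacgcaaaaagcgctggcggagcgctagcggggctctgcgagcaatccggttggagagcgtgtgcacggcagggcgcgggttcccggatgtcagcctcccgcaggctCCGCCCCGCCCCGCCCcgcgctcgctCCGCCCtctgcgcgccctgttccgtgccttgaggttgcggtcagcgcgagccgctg
Each holds 1 TGACG half-site, at position -1 from the start in Ppp3cb and at -184 in Ppp3r1, and the GC box occurs 2 times in Ppp3cb and 4 times in Ppp3r1. The full element TGACGTCA, which contains the half-site and stands in 1.79% of all promoters, was in neither, nor was TATAAA, found in 13.6%. The table matched 5 of the 9 members by symbol (Camk2b, Camk2d, Ppp3cb, Ppp3r1 and Nrgn). The GC box was in all 5 (3 in Camk2b, 1 in Nrgn), against 35.7% of all promoters. Their GC content was 77.3%, 70.3%, 51.0%, 70.7% and 59.3% in that order, and the median over all promoters was 52.7%. The part of base composition in these matches was not tested.

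Nrgn encodes neurogranin. It had 1626, 1479 and 1508 CPM in control, 1715 and 1537 CPM with DMSO, and 527 and 1673 CPM with ONX-0914. The ONX-0914 libraries disagreed, with replicate 1 at 34.3% of the control mean and replicate 2 at 109%, above all control libraries. The Log2FC of -0.48 (SE 0.417, 95% interval -1.44 to 0.47, FDR = 0.541) therefore rests on replicate 1, without which it was 0.11.

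**Figure D3:**
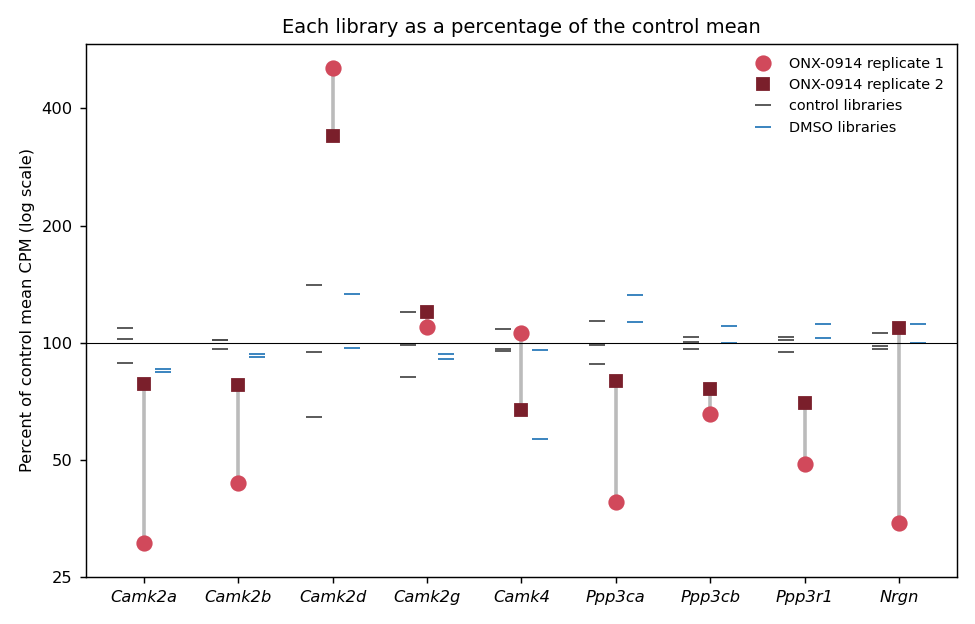
Each library as a percentage of the mean control CPM (y axis, log scale) for the 9 genes, with the ONX-0914 replicates joined by a line and the control and DMSO libraries as dashes. Replicate 1 is at 30.6% for Camk2a and 34.3% for Nrgn, where replicate 2 is at 78.1% and 109%, while Camk2d is at 509% and 340%.

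The comparison with the vehicle asks whether the same differences stood against injected mice. It shares the ONX-0914 libraries with the comparison above, so that the values are given side by side. No member passed FDR < 0.05 with edgeR, while 5 genes of all tested were lower (0.038%) and 1 was higher (0.0076%). An FDR under 0.1 was reached by 0 members, against 0.236% of all genes lower and 0.0608% higher. At an unadjusted p under 0.05, 3 members were lower, against 6.65% of all genes, and 1 was higher, against 8.08%. DESeq2 called Camk2d (FDR = 0.00146), with 0.745% of all genes higher, and Ppp3r1 (FDR = 0.0403), with 1.12% of all genes lower. The Log2FC of Camk2d was 1.87 against DMSO and 2.07 against control (edgeR FDR = 0.121 and 0.059). The calcineurin genes had -1.05 for Ppp3ca (FDR = 0.252), -0.57 for Ppp3cb (FDR = 0.248) and -0.85 for Ppp3r1 (FDR = 0.212) against DMSO. Camk2a was at -0.64 (FDR = 0.481), Camk2b at -0.61 (FDR = 0.361) and Nrgn at -0.56 (FDR = 0.546). Camk2g was at 0.32 (FDR = 0.481) and Camk4 at 0.17 (FDR = 0.787). The median over the members was -0.57, and that over all genes was 0.05.

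The vehicle alone was compared with no treatment. No member passed FDR < 0.05 with edgeR or with DESeq2, which called 0.0228% of all genes lower and 0.0456% higher, and none had an unadjusted p under 0.05, against 1.17% of all genes lower and 1.48% higher. Among all genes, 1 was lower (0.0076%) and 1 was higher (0.0076%) at FDR < 0.05. The Log2FC was negative for 4 members, against 50.5% of all genes, and positive for 5, against 49.5%. It ranged from -0.39 for Camk4 (95% interval -1.02 to 0.25) to 0.30 for Ppp3ca (95% interval -0.42 to 1.01). For Camk2d it was 0.20 (95% interval -0.60 to 1.0).

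**Figure D4:**
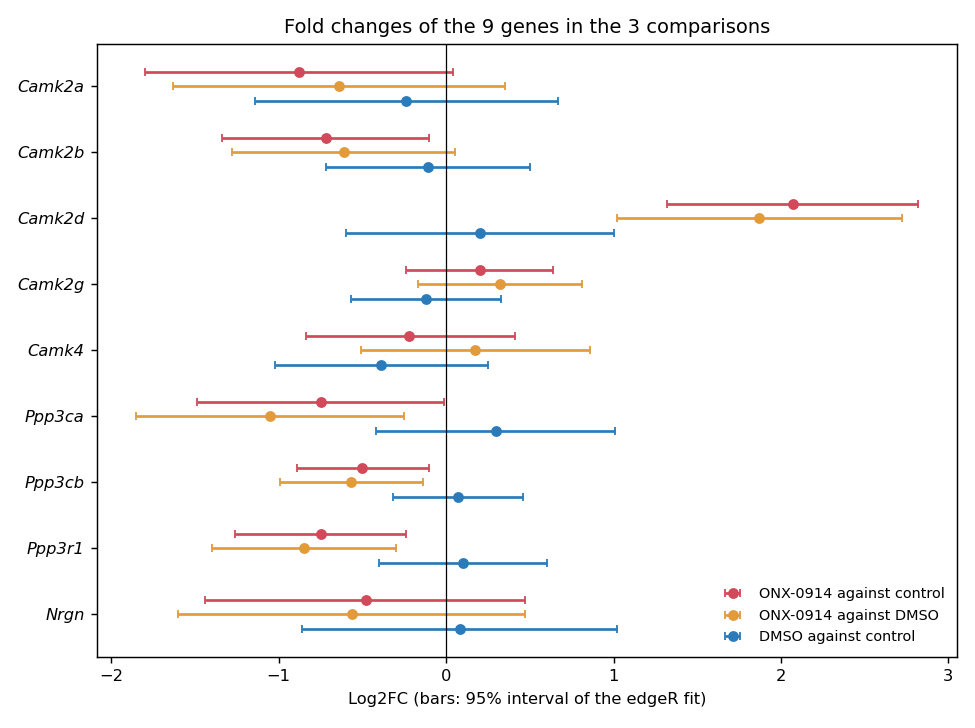
Log2FC (x axis) of the 9 genes (y axis) in the 3 comparisons, as points with 95% intervals of the edgeR fit. The Camk2d intervals against control (1.32 to 2.82) and against DMSO lie above 0, those of Ppp3ca, Ppp3cb and Ppp3r1 lie below 0 in both, and all intervals of DMSO against control contain 0.

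Other genes of the pathway were read from a list of 40, of which 38 were tested. With ONX-0914 against control, 0 passed FDR < 0.05 with edgeR and 3 passed FDR < 0.1, Pcp4 and Camk2n2 as higher (0.585% of all genes) and Camkv as lower (0.89%). At an unadjusted p under 0.05, 9 of the 38 were lower, against 8.04% of all genes, and 8 were higher, against 10.6%. The median Log2FC was 0.01 with 19 genes on each side of 0. Against DMSO, 0 passed FDR < 0.05, with 6 lower and 6 higher at an unadjusted p under 0.05, against 6.65% and 8.08% of all genes, and for DMSO against control 0 passed at either threshold.

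Calm2 and Calm3 encode calmodulin itself, from similar coding sequences between which reads could be split. Calm2 had 3602, 3544 and 3591 CPM in control, 3644 and 3884 CPM with DMSO, and 2424 and 1251 CPM with ONX-0914. Its Log2FC was -0.96 (SE 0.313, unadjusted p = 0.0148, FDR = 0.178 with edgeR), and here replicate 2 was the lower library, unlike for every CaMKII and calcineurin gene that was lower. Calm3 had 3526, 3172 and 3185 CPM in control, 3710 and 3509 CPM with DMSO, and 2172 and 1753 CPM with ONX-0914 (Log2FC -0.75, FDR = 0.17).

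The 3 smallest p-values of the list belonged to Pcp4, Camk2n2 and Camkv. Camkv, a kinase-like protein of synaptic vesicles that has lost its kinase activity, had 1550, 1625 and 1493 CPM in control, 1447 and 1437 CPM with DMSO, and 808 and 530 CPM with ONX-0914 (Log2FC -1.22, SE 0.239, FDR = 0.0796). Camk2n2, an endogenous CaMKII inhibitor, had 30.7, 24.8 and 39.9 CPM in control, 32.2 and 20.7 CPM with DMSO, and 81.0 and 81.7 CPM with ONX-0914 (Log2FC 1.35, SE 0.251, FDR = 0.0742). Its ONX-0914 libraries were nearly equal and above all others, as both were for 11.4% of all genes. Pcp4, a small calmodulin-binding protein of the neurogranin type, had 9.63, 5.45 and 4.13 CPM in control, 11.5 and 6.78 CPM with DMSO, and 24.4 and 31.3 CPM with ONX-0914 (Log2FC 2.16, SE 0.362, FDR = 0.0718).

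Camk1, a kinase of the CaMKK cascade, had 20.3 to 22.1 CPM in control, 19.3 and 22.8 CPM with DMSO, and 32.7 and 41.4 CPM with ONX-0914 (Log2FC 0.79, FDR = 0.129). Pde1a, a calmodulin-dependent phosphodiesterase, had 207 to 228 CPM in control, 223 and 190 CPM with DMSO, and 108 and 151 CPM with ONX-0914 (Log2FC -0.73, FDR = 0.139). Rcan1, a calcineurin regulator whose transcription calcineurin and NFAT induce, had 117 to 122 CPM in control, 108 and 115 CPM with DMSO, and 87.6 and 60.3 CPM with ONX-0914 (Log2FC -0.69, FDR = 0.147). In each of these genes the ONX-0914 libraries did not overlap the others, which lay above them for 11.3% of all genes and below them for 11.4%. The genes were named for their small p-values in the same data.

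**Figure D5:**
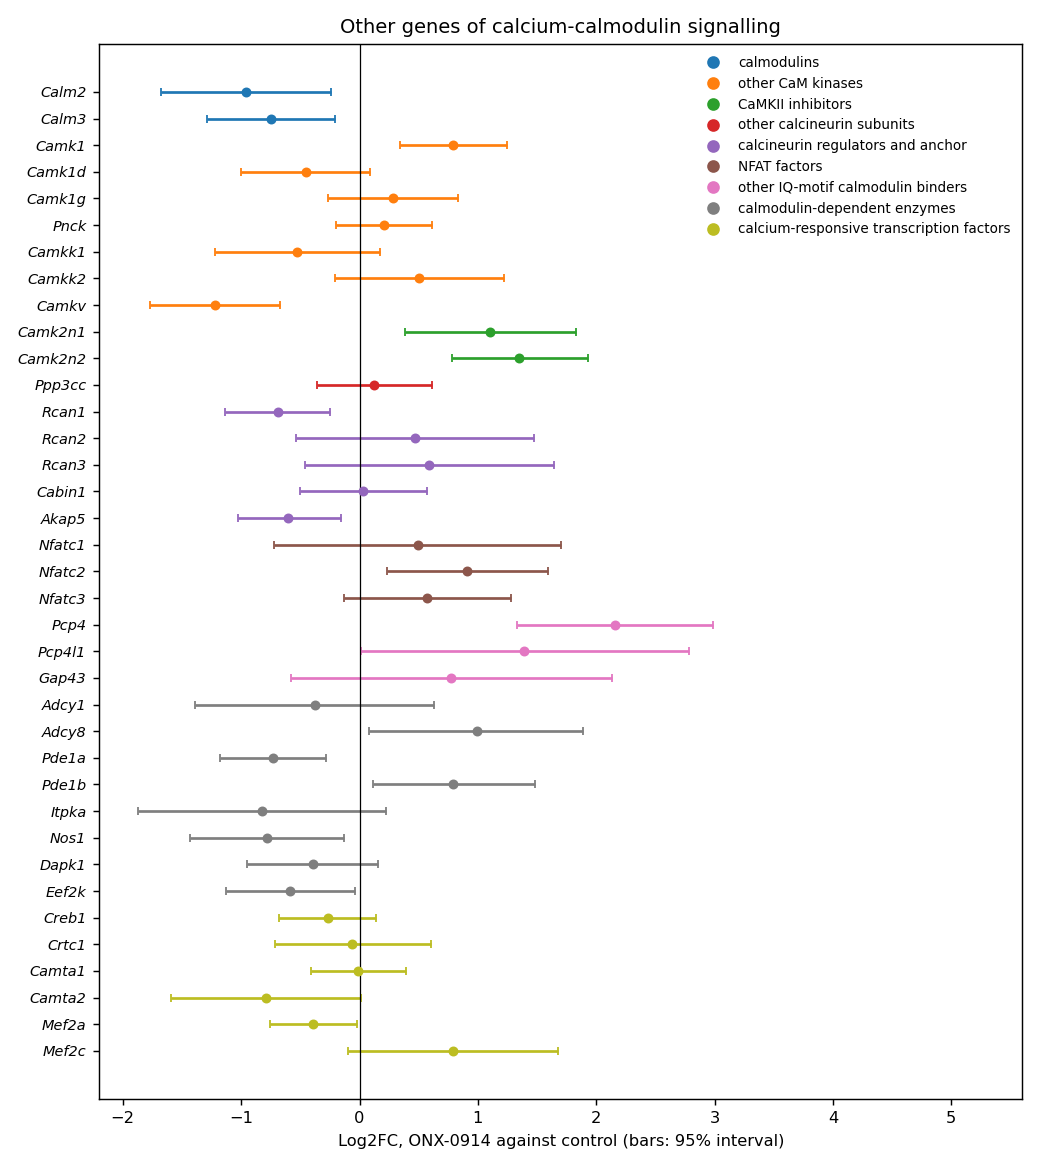
Log2FC of ONX-0914 against control (x axis) with 95% intervals for 37 tested genes of calcium-calmodulin signalling that are not among the 9 (y axis), coloured by class. Pcp4 at 2.16 and Camkv at -1.22 are the ends of the range.

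The genes most like Camk2a over the 7 libraries were Rapgefl1 (Pearson r = 0.999), Sipa1l3 (r = 0.9941), Ksr1 (r = 0.9915), Cadps2 (r = 0.991) and Zbtb18 (r = 0.9909), on log2 CPM. The points share depth and the 2 ONX-0914 libraries, and the correlation is a description. Zbtb18, a transcription factor gene of excitatory neurons, had 739, 831 and 771 CPM in control, 686 and 689 CPM with DMSO, and 172 and 524 CPM with ONX-0914. Among the members, r with Camk2a was 0.979 for Camk2b, 0.925 for Nrgn, 0.888 for Ppp3r1, 0.851 for Ppp3ca and 0.832 for Ppp3cb. Camk4 (r = -0.167), Camk2g (r = -0.327) and Camk2d (r = -0.778) did not follow it.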

How the data were processed

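Hippocampal RNA was sequenced in 7 libraries, and groups were taken from the sample labels. The deposited files, 1 per library, hold raw counts of reads on genes. The submitters' processing notes name Trimmomatic 0.39, STAR 2.7.3a, featureCounts 2.00 and the build GRCm39. The annotation and the strand setting are not given in the sources used here, so that overlapping genes could share reads. Of the reads in each file, 89.6% to 91.4% were assigned to genes, and unassigned reads stayed out. Symbols and exon lengths came from GENCODE M21.

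Differential expression was tested with edgeR 4.0.16 in R 4.3.3 (filterByExpr, TMM factors 0.965 to 1.10, glmQLFit and glmQLFTest, 1 mean per group over all 7 libraries, Benjamini-Hochberg, FDR < 0.05). The common biological coefficient of variation was 0.249. Standard errors and intervals come from the quasi-likelihood statistic. Shares of counts were tested by exact permutation with scipy 1.17.1, and DESeq2 1.42.0 was an alternative. Other alternatives were scaling, filters, groups fitted, prior count, a replicate block and each library left out. On simulated counts for ONX-0914 against control (12896 genes), 79 of 100 genes changed by 2 on the log2 scale and 10 of 96 changed by 1 were called, with 7 false calls. Each gene had the same dispersion in every simulated library, so that a wider spread between the ONX-0914 libraries was not covered.

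Named were the 9 members, the calmodulin genes, the genes of the pathway list at FDR < 0.05 or, being none, the 6 with the smallest p, and the 5 most like Camk2a. The result of 1 gene of the list is not reported here. The members and lists were chosen with earlier results of these data known.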

Additional observations from a re-analysis of the deposited data

How the results depend on the processing

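Which members passed depended on the tool, the filter and the libraries compared. For ONX-0914 against control, 0 members passed in the reported fit and 2 with DESeq2 (Camk2d and Ppp3r1). Without the filter on low counts 1 passed (Camk2d), with 2.15% of the 26822 genes then tested. Against the 5 libraries without ONX-0914, 1 passed (Camk2d), with 2.61% of 13152 genes. With 1 control library left out, 0 passed. For ONX-0914 against DMSO, 0 members passed in the reported fit and 2 with DESeq2. Without the filter 1 passed, with 1.11% of 26822 genes. With 1 ONX-0914 replicate left out, that arm was 1 library, assumed to vary like the other groups. Calls from those fits are therefore not given. Without replicate 1, Camk2a, Camk2b, Camk2d, Camk4, Ppp3ca, Ppp3cb and Ppp3r1 passed against control, together with 7023 of all genes. Without replicate 2 Nrgn took the place of Camk4, with 2594 of all genes. Against DMSO, 4 passed without replicate 1, with 6313 of all genes, and 7 without replicate 2, with 2324. The Log2FC of Camk2d against control was 1.72 to 2.41 over all alternatives.

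Some signs turned. Against control, Camk4 was 0.08 without ONX-0914 replicate 2 (-0.59 to 0.08 with 1 library left out) and Nrgn 0.11 without replicate 1 (-1.55 to 0.11). Against DMSO, Camk4 was -0.04 with the replicate block, -0.16 without DMSO replicate 3 and -0.21 without ONX-0914 replicate 1 (-0.21 to 0.60), and Nrgn was 0.03 without ONX-0914 replicate 1 (-1.63 to 0.03). For DMSO against control, Camk2d was -0.03 without control replicate 1 and -0.06 without DMSO replicate 2 (-0.06 to 0.53), Camk2g 0.03 without control replicate 3 (-0.24 to 0.03), Ppp3cb -0.01 without DMSO replicate 2 (-0.01 to 0.14), and Nrgn -0.14 with the replicate block. The cause was not tested. Every member kept its direction under the other size factors and total counts.

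The labels do not say what a replicate number shares, so that the numbers were not taken as pairs. Deviations from the group means had correlations of -0.0963 to 0.064 between same-numbered libraries. In a group of 2 libraries these deviations mirror each other, and each correlation returns with the opposite sign for the other library. The check therefore says little about pairing. With the replicate block, 0 members passed in each comparison, and Camk2d against control was 2.21 (FDR = 0.171). Over all genes, calls for ONX-0914 against control were 15 in the reported fit, 388 with DESeq2, 578 without the filter, 343 against the 5 libraries, 3 with the compared groups only, 1 with the block and 0 when any of the control libraries was left out. Total counts gave 14 (6 lower and 8 higher, against 10 and 5) and moved the median of all genes from 0.05 to 0.19. For ONX-0914 against DMSO they were 6, 245 with DESeq2, 297 without the filter, 11 with RLE factors, 3 with total counts, 10 with at least 10 counts in every library, and 0 with the compared groups only or the block. For DMSO against control they were 2, 9 with DESeq2, 11 without the filter, 141 with the compared groups only, and 0 with at least 10 counts in every library or the block. Depth limits Camk2d most, which had 36 counts in its smallest library. The shares of CaMKII and calcineurin counts kept their direction under every alternative run, with differences of -11 to -0.856 points for Camk2a, 0.73 to 3.05 for Camk2d and 0.168 to 11 for Ppp3cb with 1 library left out.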

Other observations

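The ratios in this part were formed after the values had been seen. The CaMKII inhibitor genes Camk2n1 and Camk2n2 together had 9.30, 6.02 and 8.06 counts per 100 CaMKII counts in the control libraries, 9.96 and 9.51 with DMSO, and 30.1 and 28.5 with ONX-0914. Both ONX-0914 libraries were above all others, and they lay closer to each other than their CaMKII levels did. The divisor was itself lower with ONX-0914, with Camk2a at 30.6% of the control mean in replicate 1 and 78.1% in replicate 2. Camk2n1 was at 134% and 296%, so that the similar ratios were formed from unlike levels. How many of all genes rise on this scale was not counted. Camk2n1 alone, which was named after its values were seen, had 697, 528 and 661 CPM in control, 700 and 690 CPM with DMSO, and 841 and 1861 CPM with ONX-0914 (Log2FC 1.10, SE 0.316, FDR = 0.151 with edgeR).

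Per 100 CPM of the 8 pan-neuronal markers, both ONX-0914 libraries were above all others for 2 members, Camk2d and Camk2g, against 27.6% of all genes tested, and below all others for 0, against 2.96%. Camk2a was at 24.2 in ONX-0914 replicate 1 and at 80.6 in replicate 2, on either side of the 59.1 to 77.9 of the other libraries. Camk2d was at 1.18 and 1.03, against 0.132 to 0.274. Per 100 CPM of the 5 excitatory neuron markers, both ONX-0914 libraries were above all control libraries for 9 members, against 74.3% of all genes, and above all 5 other libraries for 8, against 70.5%, the exception being Ppp3r1. The summed markers that form the divisor were themselves lower in both ONX-0914 libraries, which raises the ratio of every gene. On that scale Camk2a was at 235 and 218 with ONX-0914 and at 140 to 186 without, and Ppp3r1 was at 73.4 and 38.1 against 32.3 to 38.8.

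The remaining marker sums, in percent of the control mean for ONX-0914 replicates 1 and 2, were 62.5% and 85.8% for neocortex, 67.7% and 199% for choroid plexus, 148% and 66.8% for oligodendrocytes, 105% and 66.5% for astrocytes, and 111% and 155% for microglia. Folr1, Kcne2 and Slc4a5 of the choroid plexus list and Hba-a2 of the blood list had no count in at least 1 library.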
